A study of Homo sapiens with 2 samples.

Results

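Integrins are receptors that join the cell surface to the extracellular matrix. Each is a pair of an alpha and a beta chain, and the pair sets which matrix protein is bound. Laminins and type IV collagen form the basement membrane under epithelial cells, with nidogen, perlecan and agrin between them, whereas fibrillar collagens, fibronectin, tenascin and thrombospondins belong mainly to the interstitial matrix of the tumour stroma. Pancreatic carcinomas are known for a dense matrix, most of it made by stromal fibroblasts, to which the carcinoma cells add basement membrane and adhesive proteins.

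The genes described are 86 protein-coding genes among 58735 gene rows. They were taken by a rule on symbol and biotype, which was drawn up with earlier results of these data known, and comprise 21 integrin chains, 12 laminin chains, 44 collagen chains and 9 matrix glycoproteins (FN1, TNC, THBS1, THBS2, TGFBI, SPARC, NID1, AGRN and HSPG2). The study sequenced RNA of HM-SUIT-2, a SUIT-2 pancreatic carcinoma line with highly metastatic potential, in 1 library of untreated cells (treatment label NC) and 1 library of cells given dihydroartemisinin (DHA), an artemisinin derivative used against malaria. Both groups share the same line and carry no other labelled treatment or allele. The sources used here give no dose, exposure time, vehicle or number of cultures per library, and the culture holds carcinoma cells without the stroma of a tumour. The question addressed here is how the expression of adhesion receptors and matrix genes differed between the libraries.

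Depth was alike, with 15452609 reads counted for untreated and 14521101 for DHA-treated cells. With 1 library per group no difference has a replicate check, no test across samples is possible, and every difference compares these libraries. Intervals are 95% Clopper-Pearson counting intervals, which cover counting error only, because no second culture was measured. PCR copies of a molecule, if they were counted as separate reads, would make these intervals too narrow even for counting error. Libraries were scaled to each other by TMM (trimmed means of M values), and levels are given per gene length and library size in RPKM. A gene counted as measured if either library had 50 reads or more. It was called higher or lower in the DHA library where the scaled ratio reached 2-fold and its interval did not include 1. A count of 0 was read as up to 3 reads in that library. This floor was a set value and not the upper end of a Clopper-Pearson interval.

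Of the 86 genes, 45 were measured, 24 had fewer reads and 17 had 0 reads in both libraries. Among the 45, 21 were called lower and 3 higher. Over all 12064 measured genes 10.3% were called lower and 6.72% higher, which is 17.0% in either direction, and among the protein-coding ones 9.76% and 6.39%. The share of members called lower, 46.7%, lay above the background, and the share called higher, 6.67%, lay near it. Since the genes were chosen with results known, this is a description of them. The median log2 ratio of the 45 genes was -0.74, against 0.04 over all measured genes. In bulk RNA, fewer cells that express a gene and less RNA per cell cannot be told apart.

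Epithelial markers checked the labelled cell type. Of 8 ductal epithelium markers 7 had reads, with a summed level of 786 without and 308 with DHA (RPKM), and KRT17 was at 0. CDH1, E-cadherin, had 933 and 23 reads. Of 10 fibroblast or stellate cell markers 4 were at 0 in both libraries (DCN, PDPN, COL1A2 and COL3A1), and the list summed to 175 and 35 reads, 83 and 11 of them from COL1A1, which is itself a member. The summed level of this list was 2.17 and 0.603 RPKM. The epithelial and the fibroblast list were thus both lower in the DHA library beside the lower members, and their part in the results on members was not tested. Of 5 endothelial markers CDH5 and TEK were at 0, and PECAM1 had 280 and 54 reads of the 281 and 66 of the list. The 7 leukocyte markers, 3 of them integrin chains, summed to 25 and 20 reads with PTPRC and CD3E at 0. Of the retina markers, included because the protocol text names retina, RCVRN and CRX were at 0, OPN1SW had 61 and 49 reads and PDE6A 6 and 5.

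The 4 families differed in the share called lower, beside 10.3% lower and 6.72% higher over all measured genes. Matrix glycoproteins had 7 of 8 measured genes lower (87.5%) and 0 higher, and collagens 7 of 13 lower (53.8%) and 0 higher. Integrins had 6 of 15 lower (40%) and 2 higher (13.3%). Laminins had 1 of 9 lower and 1 higher (11.1% each), so their share called lower lay near that of all genes. Summed over its genes, the glycoprotein family took 0.251% of all reads without and 0.0756% with DHA, 3.34-fold lower after scaling. The collagen sum was 1.66-fold lower. The integrin sum was 1.17-fold higher and the laminin sum 1.01-fold higher, so that these sums hid opposite differences of single chains.

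**Figure D1:**
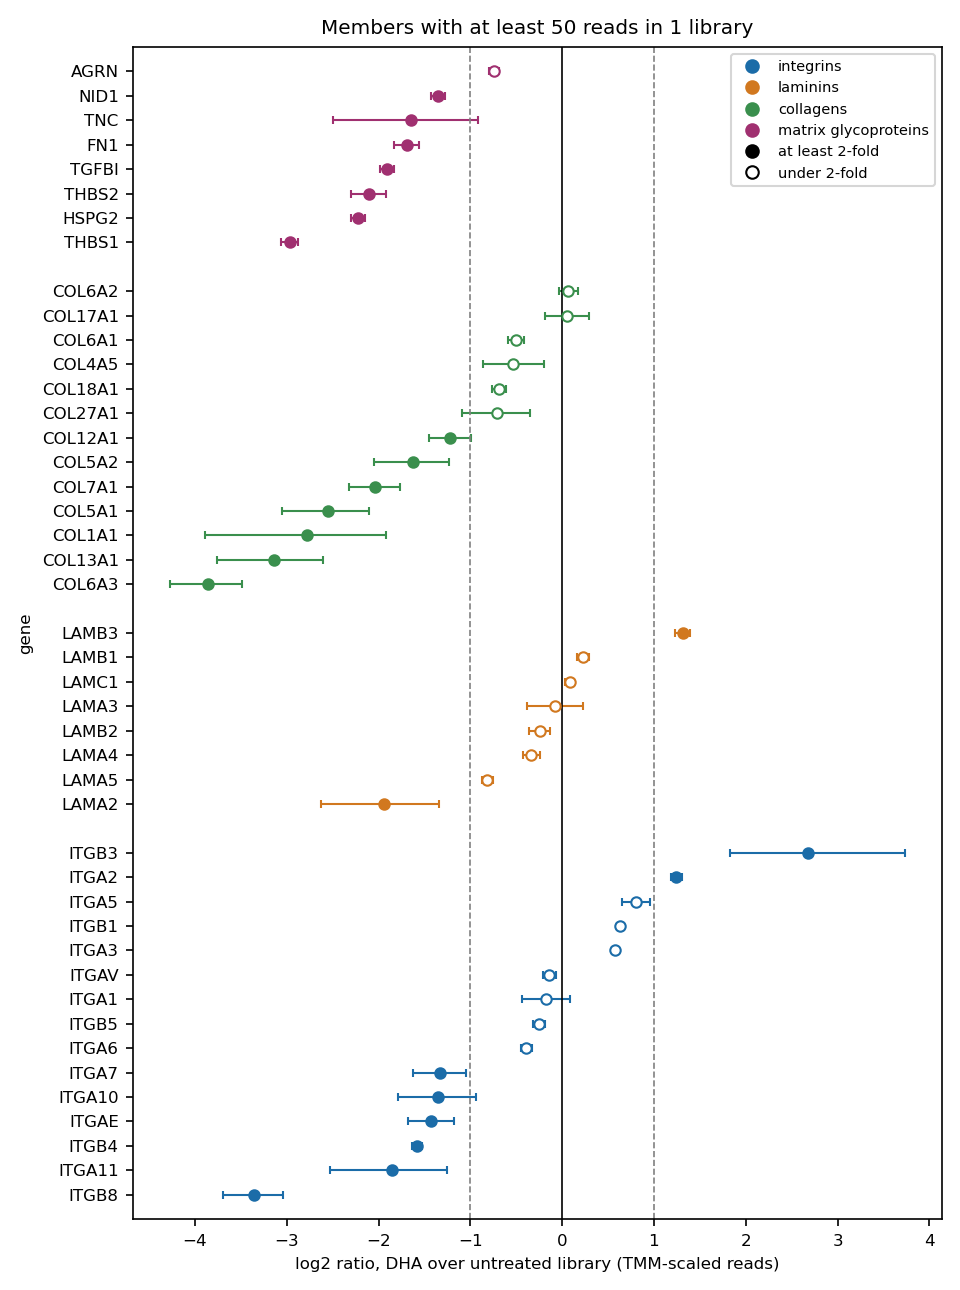
Log2 ratio, DHA over untreated (horizontal axis), for 44 of the 45 measured genes, by family, with 95% counting intervals as bars; dashed lines mark 2-fold and filled points are called genes. Of the glycoproteins 7 of 8 lie left of the lower line, whereas the laminins other than LAMA2, LAMA5 and LAMB3 lie close to 0.

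Sequences upstream of the start site are shown for genes at both ends of the range of ratios, so that the lower and the higher genes can be set side by side. RefSeq windows (build GRCh38.p14) matched 64 of the 86 genes. The windows are cut to the bases upstream of both the most upstream RefSeq start and the GENCODE start. Other RefSeq starts were not used (LAMB3 has 3 listed and COL5A1 2). The 3 lowest and the higher genes with at least 200 such bases are printed 5′ to 3′ on the strand of the gene. Capitals mark matches, on either strand, to the GC box (GGGCGG), to the motif of TEAD factors (GGAATG) or to the TATA box (TATAAA). The windows are chr10:69801656-69801866 (plus strand), chr15:39580829-39581078 (plus), chr9:134641553-134641773 (plus), chr1:209652467-209652675 (minus) and chr5:52989102-52989325 (plus), in the order printed. COL13A1, THBS1 and COL5A1 were lower, and LAMB3 and ITGA2 higher.
COL13A1: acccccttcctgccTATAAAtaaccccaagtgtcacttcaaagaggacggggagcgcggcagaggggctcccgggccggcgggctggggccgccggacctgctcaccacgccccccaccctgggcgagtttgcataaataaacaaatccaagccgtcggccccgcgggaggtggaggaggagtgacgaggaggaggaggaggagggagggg
THBS1: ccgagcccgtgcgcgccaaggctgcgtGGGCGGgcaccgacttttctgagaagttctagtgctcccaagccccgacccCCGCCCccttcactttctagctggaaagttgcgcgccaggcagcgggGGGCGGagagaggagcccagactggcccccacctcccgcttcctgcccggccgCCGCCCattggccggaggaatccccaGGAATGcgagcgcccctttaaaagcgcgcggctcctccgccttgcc
COL5A1: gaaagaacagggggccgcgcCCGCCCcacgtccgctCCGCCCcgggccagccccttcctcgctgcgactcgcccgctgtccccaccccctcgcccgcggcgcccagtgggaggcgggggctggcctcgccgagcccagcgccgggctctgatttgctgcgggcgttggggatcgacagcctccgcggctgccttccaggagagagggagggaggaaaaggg
LAMB3: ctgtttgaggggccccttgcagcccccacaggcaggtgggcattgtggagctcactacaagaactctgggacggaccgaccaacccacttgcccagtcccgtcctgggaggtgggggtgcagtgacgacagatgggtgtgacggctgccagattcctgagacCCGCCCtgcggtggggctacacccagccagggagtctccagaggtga
ITGA2: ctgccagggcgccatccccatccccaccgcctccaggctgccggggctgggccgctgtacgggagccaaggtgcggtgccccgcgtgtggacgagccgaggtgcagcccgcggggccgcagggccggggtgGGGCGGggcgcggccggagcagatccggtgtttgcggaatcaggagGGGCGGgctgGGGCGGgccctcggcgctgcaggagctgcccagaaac

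The printed windows of THBS1, COL5A1, LAMB3 and ITGA2 held 4, 2, 1 and 3 GC boxes, so that this motif stood before genes of either direction. For each gene, the window of 250 bases upstream of its most upstream RefSeq start was searched, also where other starts are listed. A GC box was found in 10 of 17 lower members and in both higher ones with an entry. It was also found in 11 of 17 measured members that were not called, and in 42.2% of 27305 genes. The windows of the 64 members had a median GC content of 65.2%, against 57.6% over all genes. GGAATG was found in 5 of the 17 lower members (COL12A1, ITGA10, LAMA2, THBS1 and THBS2), in 2 of the 17 not called and in 11.95% of all genes. The AP-1 motif TGANTCA was found in 0 of the 17 lower and 0 of the 2 higher members, in 1 of the 17 not called and in 6.57% of all genes. The core of the antioxidant response element, TGACNNNGC, was likewise found in 0 of the lower and higher members. It was found in 4 of the 17 not called and in 11.1% of all genes. TATAAA occurred in 3 of the 17 lower members, in 3 of the 17 not called and in 11.2% of all genes. Each of the 5 motifs was searched on both strands, and matches of different motifs may overlap. A match is a description of letters and not of binding, and a window without one says nothing of the factor.

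Among integrin beta chains, ITGB1 remained the most abundant member of all 86 per gene length, and ITGB4 and ITGB8 were lower. ITGB1 (ENSG00000150093, chromosome 10, 32900319 to 33005792, minus strand), the common partner of most alpha chains, had 21795 reads without and 31861 with DHA, a log2 ratio of 0.63 (0.60 to 0.65) that did not reach 2-fold. ITGB4 (ENSG00000132470, chromosome 17, 75721328 to 75757818, plus strand), the chain that anchors hemidesmosomes to keratin filaments, had 11236 and 3547 reads and was lower, with a log2 ratio of -1.58 (-1.64 to -1.53). ITGB8 (ENSG00000105855, chromosome 7, 20330702 to 20415754, plus strand), which pairs with the alpha v chain and binds latent TGF-beta, had 955 and 88 reads and was 10.2-fold lower (8.25 to 12.9). ITGB5, another partner of alpha v and a vitronectin receptor chain, had 4426 and 3521 reads and a log2 ratio of -0.25. ITGB6, the epithelial alpha v partner, had 35 and 6 reads and was under the read minimum.

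ITGB3 was the only beta chain called higher. This chain of the platelet fibrinogen receptor and of an alpha v integrin had 12 reads without and 75 with DHA, 6.38-fold higher (3.56 to 13.3). Its level stayed low, at 0.177 and 1.17 RPKM. Of the exon length of ITGB3, 51.6% is shared on the same strand with the annotated gene AC068234.1, listed with 0 reads in both libraries, and the sources used here do not say how such reads were counted. Its value is therefore uncertain. The leukocyte chains ITGB2 (3 and 6 reads) and ITGB7 (3 and 5) were near the floor in both libraries.

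As a share of the summed beta chain level per length, ITGB1 took 59.9% without and 82.9% with DHA, ITGB4 27.5% and 8.20%, and ITGB5 11.4% and 8.54%. On reads without division by length the ITGB1 shares were 56.7% (56.2 to 57.2) and 81.5% (81.1 to 81.9). The makeup of the beta chains thus differed by more than counting error; the ITGB1 share was larger and those of ITGB4 and ITGB5 smaller in the DHA library.

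Among alpha chains, the collagen receptor chain ITGA2 was higher, while ITGA7, ITGA10, ITGA11 and ITGAE were lower. ITGA2 (ENSG00000164171, chromosome 5, 52989326 to 53094779, plus strand) had 3186 reads without and 7149 with DHA, 2.37-fold higher (2.27 to 2.47). The other chains of collagen-binding integrins were lower or stayed under 2-fold. ITGA10 had 176 and 65 reads (2.55-fold lower, 1.92 to 3.46) and ITGA11, known from fibroblasts, 108 and 28 (3.60-fold lower, 2.39 to 5.75). ITGA1 had 268 and 225 reads, and its interval of the log2 ratio, -0.44 to 0.09, included 0.

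Of the chains that bind laminin, ITGA3 had 11966 and 16874 reads and a log2 ratio of 0.57, and ITGA6 had 5308 and 3829 reads and a log2 ratio of -0.39. ITGA7, the laminin receptor chain of muscle, had 359 and 135 reads and was 2.51-fold lower (2.06 to 3.09). ITGB4 pairs with ITGA6 alone, whereas ITGA6 also pairs with ITGB1. Per length, ITGB4 stood at 2.05 times the level of ITGA6 without DHA and at 0.895 times with it, so the order of the chains of this receptor was turned.

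Of the chains that bind the RGD peptide of fibronectin and vitronectin, ITGA5, the fibronectin receptor chain, had 585 and 967 reads and a log2 ratio of 0.80 (0.65 to 0.95), and ITGAV had 3834 and 3299 reads and -0.14. ITGA8 had 0 reads in both libraries. ITGAE, best known from T cells that bind E-cadherin, had 528 and 186 reads and was 2.68-fold lower (2.27 to 3.19). ITGA4 and ITGA9 had at most 6 reads.

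The order of the alpha chains per length was ITGA3, ITGA6, ITGAV and ITGA2 in the untreated library, at 79.3, 52.8, 30.3 and 26.2 RPKM. In the DHA library it was ITGA3, ITGA2, ITGA6 and ITGAV, at 118, 62.0, 40.2 and 27.6. ITGA2 thus stood in the fourth and then in the second place, with 12.7% and 23.7% of the summed alpha chain level.

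Laminins are trimers of an alpha, a beta and a gamma chain. Summed over all chains their reads differed little, but the sums of the alpha and beta classes differed in opposite directions. Alpha chains summed to 9433 reads without and 5602 with DHA, and beta chains to 6888 and 9405. LAMB3 (ENSG00000196878, chromosome 1, 209614870 to 209652466, minus strand), the beta chain of the epithelial anchoring laminin, had 1775 reads without and 4181 with DHA, 2.49-fold higher (2.35 to 2.63). Its alpha chain partner LAMA3 stayed under 2-fold, with 188 and 169 reads (log2 ratio -0.07, interval -0.38 to 0.23). Per length, LAMB3 stood at 29.6 times the level of LAMA3 without DHA and at 77.5 times with it.

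Of the other alpha chains, LAMA5, the main alpha chain of adult epithelial basement membranes, had 6850 and 3690 reads and a log2 ratio of -0.81. LAMA4, the chain of vessel and muscle basement membranes, had 2284 and 1716 reads and -0.33. LAMA2, the muscle chain, was the only laminin called lower, with 111 and 27 reads (3.84-fold, 2.54 to 6.17). All 4 measured alpha chains had log2 ratios below 0, though the interval of LAMA3 included 0. The widely expressed LAMB1 had 3710 and 4104 reads and a log2 ratio of 0.22, and LAMB2, a beta chain of kidney and synaptic basement membranes, had 1401 and 1120 reads and -0.24. LAMC1, the gamma chain of most laminins, had 6255 and 6278 reads and 0.08.

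Among beta chains per length, LAMB3 took 36.5% without and 57.2% with DHA, and LAMB1 43.9% and 32.3%. On reads the intervals of both overlapped in the DHA library, where LAMB3 took 44.5% (43.4 to 45.5) and LAMB1 43.6% (42.6 to 44.6). LAMA1 had 0 reads in both libraries, and LAMB4 and LAMC3 at most 6.

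**Figure D2:**
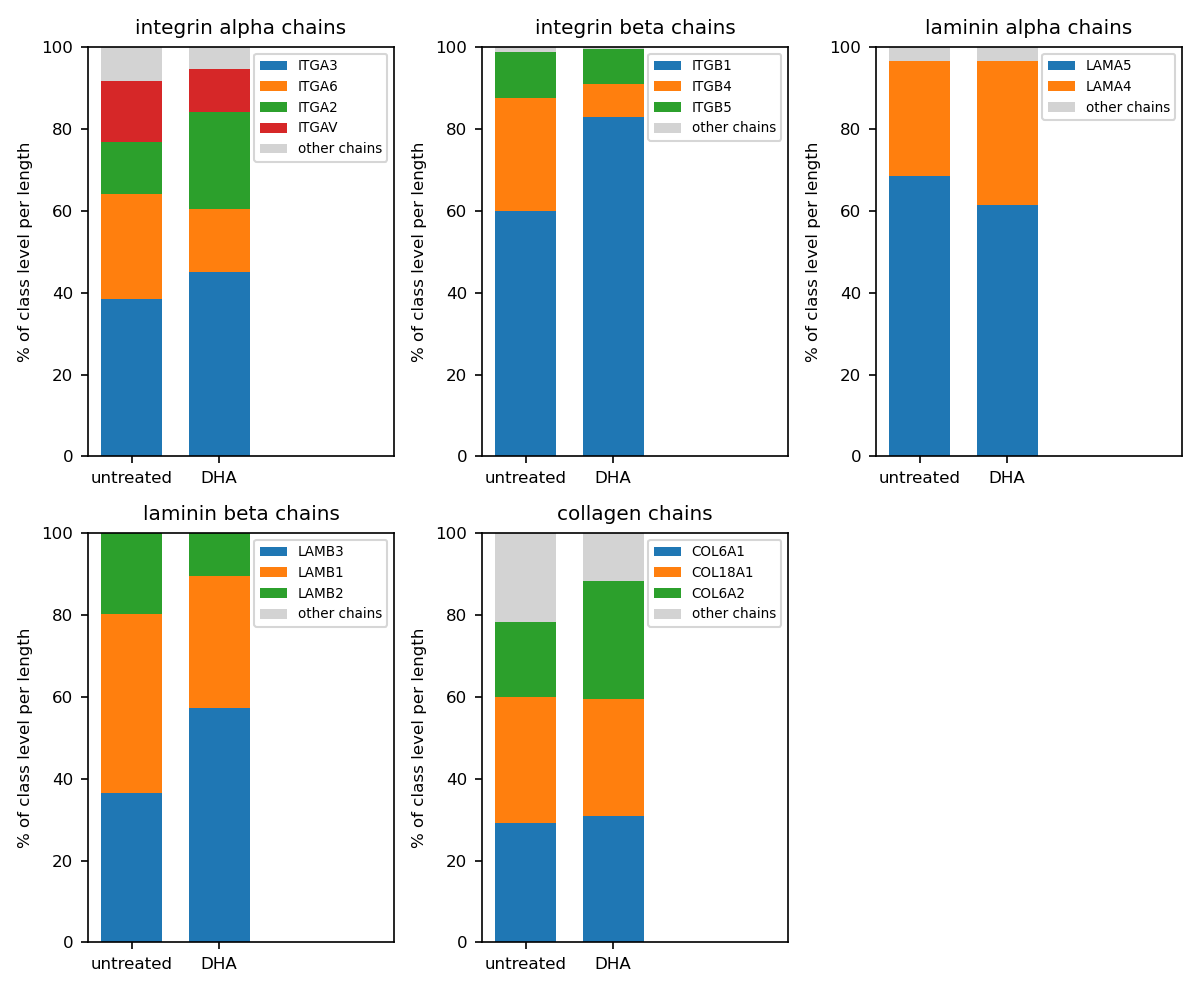
Share of each chain in the summed level per gene length of its class (vertical axis, %) in the untreated and the DHA library; chains under 5% in both are pooled in grey. ITGB1 and LAMB3 widen from 59.9% to 82.9% and from 36.5% to 57.2%, and ITGB4 narrows from 27.5% to 8.20%.

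Collagens were dominated by COL18A1, COL6A1 and COL6A2, and the lower genes were mostly scarce ones. Only 13 of 44 collagen genes were measured, and 14 had 0 reads in both libraries, including COL1A2, COL3A1 and COL4A1. COL1A1 (chain of type I collagen, the main fibrillar collagen) had 83 and 11 reads (6.88-fold lower, 3.79 to 14.9) without its partner chain COL1A2. COL4A2 had 3 and 0 reads, so that the usual chains of type IV collagen were at the floor, and COL4A5, a chain of specialised basement membranes, had 194 and 127 reads (log2 ratio -0.53).

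Type VI collagen, which forms beaded filaments next to basement membranes, is built from COL6A1, COL6A2 and a further chain, most often COL6A3. COL6A1 had 2440 and 1631 reads (log2 ratio -0.50), and COL6A2 had 1544 and 1531 (0.07, interval -0.04 to 0.17). COL6A3 (ENSG00000163359, chromosome 2, 237324003 to 237414375, minus strand) had 908 reads without and 59 with DHA, 14.5-fold lower (11.2 to 19.3), the lowest ratio among the 45 measured genes. Per length, COL6A1 stood at 9.87 times the level of COL6A3 without DHA and at 102 times with it. COL6A5 and COL6A6, which can take the place of COL6A3, had 0 reads in both.

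COL13A1 (ENSG00000197467, chromosome 10, 69801867 to 69964275, plus strand), a transmembrane collagen of adhesion sites, had 273 and 29 reads and was 8.78-fold lower (6.07 to 13.6). COL17A1, the transmembrane collagen of hemidesmosomes, had 294 and 289 reads and a log2 ratio of 0.05 (-0.19 to 0.29). These transmembrane collagens thus differed from each other, with counting intervals that did not overlap. COL5A1 and COL5A2, chains of the collagen that starts fibrils, had 280 and 45 reads (5.84-fold lower, 4.29 to 8.26) and 220 and 67 (3.09-fold lower, 2.36 to 4.15). COL7A1, the anchoring fibril collagen of epithelium, had 564 and 130 reads (4.10-fold lower, 3.39 to 5.01), and COL12A1, which coats fibrils, 553 and 225 (2.32-fold lower, 1.99 to 2.73).

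The abundant COL18A1, the basement membrane precursor of endostatin, had 4079 and 2401 reads and a log2 ratio of -0.69, with 16.4% of its exon length shared on the opposite strand with SLC19A1 (959 and 459 reads). COL27A1, a fibrillar collagen of cartilage, had 168 and 97 reads and -0.71. Of the collagens under the minimum, those with at least 20 reads in a library were COL4A6 (38 and 14), COL9A2 (23 and 3) and COL8A2 (21 and 2). All were fewer in the DHA library.

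Matrix glycoproteins were the family with the largest share of lower genes. THBS1 (ENSG00000137801, chromosome 15, 39581079 to 39599466, plus strand), thrombospondin 1, an inhibitor of angiogenesis and activator of latent TGF-beta, had 8780 reads without and 1061 with DHA, 7.83-fold lower (7.35 to 8.36). THBS2, its close relative, had 1314 and 289 reads (4.30-fold lower, 3.79 to 4.91). TGFBI (ENSG00000120708, chromosome 5, 136028895 to 136063818, plus strand), an integrin-binding protein induced by TGF-beta, had 6835 and 1727 reads (3.75-fold lower, 3.55 to 3.95). All 3 were abundant, so their counting intervals were narrow.

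FN1, fibronectin, had 2075 and 607 reads (3.23-fold lower, 2.96 to 3.55), and TNC, tenascin C, 64 and 19 (3.13-fold lower, 1.89 to 5.64). Fibronectin was thus lower while its receptor chain ITGA5 had a ratio above 1. SPARC, a collagen-binding glycoprotein, had 0 reads in both libraries.

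The basement membrane members were also lower, though not to the same degree. HSPG2 (ENSG00000142798, chromosome 1, 21822245 to 21937297, minus strand), perlecan, had 8103 and 1646 reads and was 4.66-fold lower (4.42 to 4.92). NID1, nidogen 1, which links laminin to type IV collagen, had 4706 and 1744 reads (2.55-fold lower, 2.42 to 2.70). AGRN, agrin, had 6849 and 3884 reads and a log2 ratio of -0.74 (-0.80 to -0.68), the only measured glycoprotein under 2-fold. Laminin LAMC1, to which nidogen binds, had a ratio near 1 (log2 ratio 0.08), so these basement membrane components did not differ together.

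**Figure D3:**
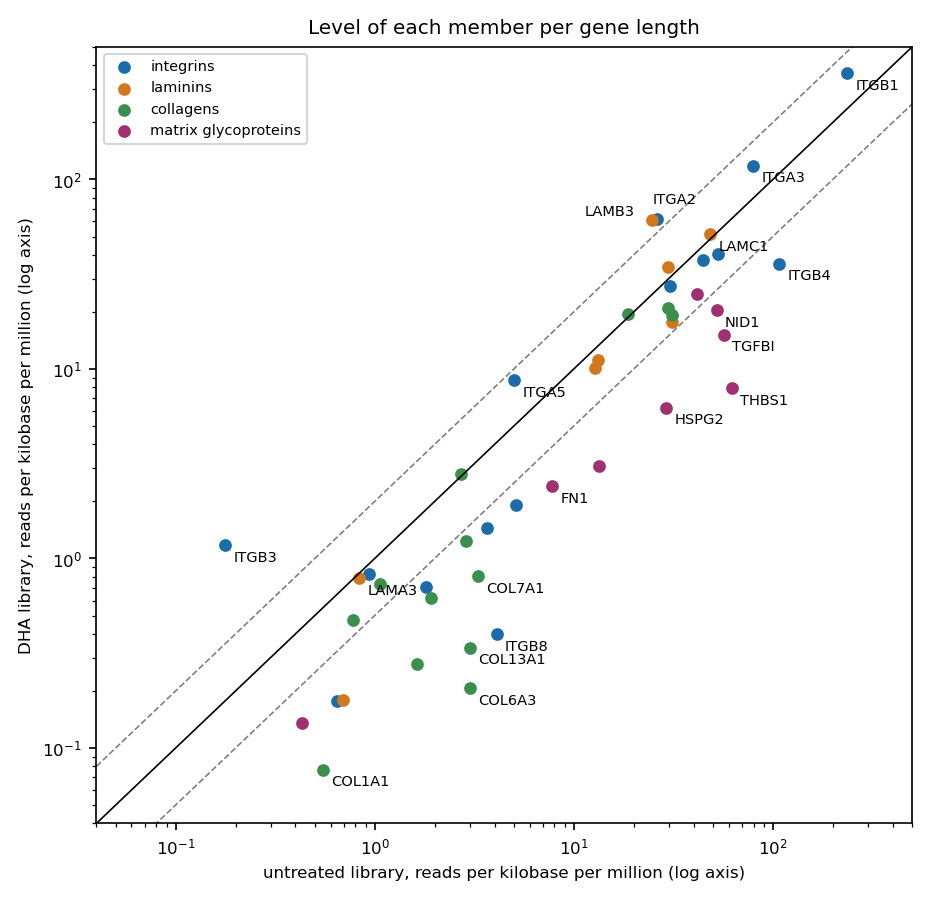
Level per gene length of 44 of the 45 measured genes in the untreated (horizontal) and the DHA library (vertical), both in RPKM on log axes; the solid line is equality and dashed lines are 2-fold. ITGB1 stays highest at 236 and 364, THBS1 lies at 62.3 and 7.95, and ITGB3 alone lies far above the upper line at a low level.

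Some neighbouring genes had unlike ratios and others like ones. ITGA1 and ITGA2 lie 30115 bases apart on chromosome 5 on the same strand, with log2 ratios of -0.17 and 1.24. COL6A1 and COL6A2, 93046 bases apart on chromosome 21, had -0.50 and 0.07, and ITGA3 and COL1A1, 92807 bases apart on chromosome 17, had 0.57 and -2.78. COL18A1 and COL6A1, 468016 bases apart on chromosome 21, had -0.69 and -0.50, and COL4A6 and COL4A5, which start 346 bases apart on chromosome X, had 38 and 14 and 194 and 127 reads, both fewer in the DHA library.

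The lower genes tended to be less abundant. Of 24 members with at least 1000 reads in a library 7 were lower (29.2%, against 5.67% of all such genes), and of the 21 with 50 or more but under 1000 reads 14 were lower (66.7%, against 12.6%). Lower members had a median gene length of 9636 bases, the 21 measured ones that were not called 8211, and the 3 higher ones 4688. Across the 45 members the ratio had a Spearman correlation of -0.36 with length, and of 0.11 across 12062 genes. Genes are not independent replicates, and all values share the same 2 libraries. With a length trend removed, the same counts of 21 lower and 3 higher were obtained.

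Genes that act with the members were taken from 7 lists. Of 27 measured adaptors and kinases of focal adhesions, the complexes that tie integrins to actin, 5 were lower and 3 higher, with a median log2 ratio of -0.05. TNS4 and TNS3, tensins that bind beta integrin tails, had the lowest ratios, with 194 and 12 reads (14.7-fold lower, 8.57 to 30.1) and 8781 and 1139 reads (7.30-fold, 6.86 to 7.77). A further tensin, TNS2, had 416 and 167 reads (2.35-fold lower). KANK2, a talin-binding protein, was 2.47-fold and the kindlin gene FERMT1 2.18-fold lower. The higher genes were GIT1 (2.61-fold), zyxin ZYX (2.16-fold) and paxillin PXN (2.07-fold). PXN lay just past 2-fold and lost its call with upper quartile scaling (log2 ratio 0.99) and with a length and GC trend removed (0.98). The shares lower (18.5%) and higher (11.1%) stood beside backgrounds of 10.3% and 6.72%.

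The hemidesmosome genes outside the members, measured for 3 of 5, had 0 calls. The linker PLEC had a log2 ratio of 0.50, DST -0.18 and the tetraspanin CD151 -0.12, so ITGB4 was lower without them. Of 12 measured matrix receptors other than integrins, 2 were lower and 0 higher (median -0.42). The share lower was 16.7%, against 10.3% of all measured genes. The lower ones were the laminin receptor BCAM (2.92-fold) and the collagen receptor kinase DDR1 (2.85-fold). RPSA, the ribosomal laminin receptor, and MRC2, a collagen uptake receptor, had -0.74 and -0.68.

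Of 20 measured genes that fold and modify collagen, 3 were lower and 1 higher (median -0.10). These shares, 15% and 5%, lay near the 10.3% and 6.72% of all measured genes. The collagen chaperone SERPINH1 had 2331 and 730 reads (3.02-fold lower, 2.78 to 3.29), ADAMTS3, a procollagen protease, was 3.15-fold and the hydroxylase family gene P3H3 2.18-fold lower. P4HA1, a catalytic subunit of the prolyl hydroxylase that stabilises the collagen helix, went the other way with 800 and 1981 reads (2.61-fold higher, 2.41 to 2.84). Of only 4 measured crosslinking enzymes 2 were lower (50%, against 10.3%) and 0 higher (median -0.70). The lower ones were LOXL4 (7.06-fold, 6.42 to 7.78) and the transglutaminase TGM2 (2.05-fold), with LOX at -0.36 and LOXL2 at 0.19.

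Of 17 other measured matrix proteins 7 were lower and 2 higher (median -0.82). These shares, 41.2% and 11.8%, stood beside 10.3% and 6.72% of all measured genes. FREM2 and FRAS1, partners in the epithelial basement membrane, were 4.88-fold and 3.47-fold lower, and TINAGL1 2.67-fold, FBLN5 2.40-fold, NPNT 2.28-fold, FBN1 2.13-fold and LTBP2 2.02-fold. The higher ones were the matricellular genes CTGF (282 and 999 reads, 3.74-fold, 3.27 to 4.29) and CYR61 (2.25-fold), both ligands of integrins. Of 5 measured proteoglycans 1 was lower and 1 higher (20% in each direction, median 0.28). VCAN, versican, had 17436 and 1939 reads (8.51-fold lower, 8.12 to 8.93), BCAN was 2.46-fold higher at 34 and 80 reads, and GPC1 and SRGN had 0.68 and 0.28.

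**Figure D4:**
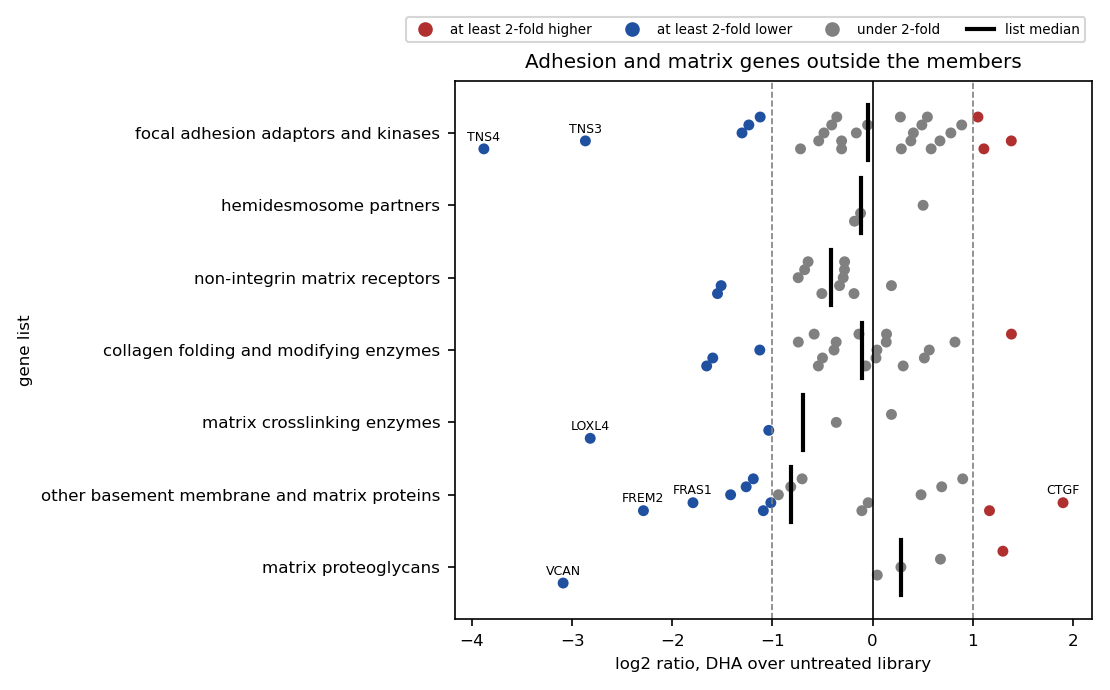
Log2 ratio, DHA over untreated, for measured genes of the 7 lists, members left out; each point is a gene, the black bar is the list median and dashed lines mark 2-fold. TNS4, VCAN, TNS3 and LOXL4 lie farthest to the left, at -3.88, -3.09, -2.87 and -2.82, and CTGF farthest to the right at 1.90.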

How the data were processed

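RNA-seq read counts of 2 libraries of a human pancreatic carcinoma cell line, 1 untreated and 1 given DHA, were used. Groups came from the treatment labels. The deposited values are whole-number counts per gene with no normalization, per the file headers and values. The gene length deposited beside them equalled the exon union of GENCODE release 29 on GRCh38 for all 58735 rows. The sources used here give no aligner, counter, strand setting or handling of shared reads. The submitters' processing notes list mm8, a mouse build, and the labels' protocols name retina, although the identifiers are human. Trizol RNA and an Illumina library kit were used, per the labels' protocols.

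Counts were scaled by TMM factors from edgeR 4.0.16 (R 4.3.3). Ratios used 0.5 added reads, with Clopper-Pearson intervals from scipy 1.17.1. Without replicates edgeR's quasi-likelihood test could not be fitted, and a rule of size took its place. This rule was tried on simulated counts that held counting error only. With no variation between cultures in it, the simulation cannot show how often such variation alone would reach 2-fold. Levels (RPKM) were computed from the deposited gene length and the scaled library size. The floor of 3 reads is 0.195 and 0.206 CPM in the untreated and the DHA library, and the precision of each ratio is set by its reads. Gene lists held 144 entries, of which 141 matched by symbol, 1 did not match and the rest matched by an older symbol. Alternatives were other scalings (including DESeq2 1.42.0 size factors), read minimums, added reads, folds, a wider interval, a length trend, and, added after the data were seen, a length and GC trend and leaving out genes with over 50% shared exon length.

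Members measured or called were named, with members under the minimum from 20 reads in a library and, of each list, up to 8 called genes or up to 4 genes with the largest ratios. A member and a marker gene are not reported here by name. The members and lists were chosen with earlier results of these data known.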

Additional observations from a re-analysis of the deposited data

How the results depend on the processing

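No paired analysis was possible because each group has 1 library, and for the same reason no library could be left out. The 4 other scalings, 2 added reads, the wider counting interval, and removal of a trend on length, or on length and GC content, each left the counts of 21 lower and 3 higher members and the counts of each family, and the median of the members lay between -0.80 and -0.73. The median of all genes shifted by at most -0.07 under another scaling. With a fold of 4, 9 of 45 members were lower (20%) and 1 was higher (2.22%). These comprised 1 integrin lower and 1 higher, 0 laminins in either direction, 5 collagens lower and 3 glycoproteins lower. Of all genes 340 were lower (2.82%) and 110 higher (0.912%). With a fold of 1.5, 25 members were lower (55.6%) and 5 higher (11.1%), among them 4 higher integrins and 2 lower laminins. Of all genes 2320 were lower (19.2%) and 2284 higher (18.9%), so the share of members called higher lay below the background. With a minimum of 200 reads, 16 of 36 members were lower (44.4%) and 2 higher (5.56%), with 1 integrin higher and 0 laminins lower. Fewer genes were tested, and of all genes 688 were lower (7.36%) and 581 higher (6.22%). With a minimum of 10 reads the median of the members was -1.22, with 25 of 51 lower (49%) and 3 higher (5.88%). Of all genes 2126 were lower (13.6%) and 1297 higher (8.31%). With no minimum the median was -1.22, with 26 of 69 members lower (37.7%), 11 of them collagens, and 3 higher (4.35%). Of all genes 2386 were lower (9.17%) and 1432 higher (5.51%). Dropping genes with over 50% shared exon length removed ITGB3 and left 1 integrin higher. Of the shares of chains, LAMB3 and LAMB1 came close only on reads. Of the 41 genes under the minimum, COL4A6, COL9A2, ITGB6 and COL8A2 were lower with a minimum of 10 reads and also COL24A1 with none. Low depth widens the intervals of the others.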

Other observations

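Integrin-related rows outside the 86 genes were mostly near the floor. The platelet chain ITGA2B had 19 reads without and 8 with DHA, and the leukocyte chains ITGAM, ITGAX, ITGAD and ITGAL had at most 4. ITGB1BP1 (656 and 753 reads) and ITGB3BP (524 and 354) had more reads and were not called. The integrin-like secreted protein gene ITGBL1, outside the naming rule, was chosen after its values were seen. It had 309 and 122 reads and was 2.39-fold lower (1.94 to 2.98), with 70.5% of its exon length shared with another gene. ITGB1-DT, the long non-coding RNA that starts divergently beside ITGB1, was also chosen after its values were seen. It had 19 reads without and 125 with DHA, 6.80-fold higher (4.27 to 11.9), while ITGB1 itself had a log2 ratio of 0.63. Since the sources used here do not give the strand setting of the counting, reads of this RNA and of ITGB1 cannot be told apart where the genes overlap, which is 3.52% of the exon length of ITGB1-DT.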
